A study of Mus musculus with 14 samples.

Results

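Metallothioneins are small cysteine-rich proteins that hold zinc and copper, and 3 of their mouse genes, Mt1, Mt2 and Mt3, were listed for this account of the hypothalamus in fasted and fed mice. The genes were found by gene symbol in the platform annotation, each represented by the probe set that named it alone and had the highest mean over the 14 arrays. Mt1 and Mt3 had such a probe set, so 2 of the 3 listed genes were measured, among 17097 genes tested. No probe set of the annotation used here names Mt2, which was not analysed here. The name of the Mt1 probe set carries the mark that Affymetrix gives to probes matching more than 1 transcript.

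RNA from whole hypothalamus was hybridised to Affymetrix arrays, 150 ng of total RNA per array. All mice were 12 weeks old and came from a mixed background of the strains C57Bl/6J, FVB/N and 129. The 4 groups were knockout mice (genotype POMCMfn1KO, in which Mfn1, a gene for mitochondrial fusion, is deleted in POMC neurons) fasted for 16 h (n = 3), knockout mice fed at will (n = 4), control mice fasted for 16 h (n = 3) and control mice fed at will (n = 4). The labels name neither the Cre driver nor the alleles of the control mice, and do not say whether an array holds 1 mouse, and the tests therefore compare samples whose spread may be technical. POMC neurons are a small fraction of the hypothalamus, and the level of Mfn1 in whole tissue, 9.06 in knockout fasted, 9.06 in knockout fed, 9.06 in control fasted and 9.04 in control fed mice on the log2 scale, cannot check the genotype labels. In bulk tissue, fewer cells of a type and less RNA per cell cannot be told apart.

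Metallothioneins buffer free zinc, take part in handling copper and cadmium, and react with oxidants through their thiol groups. The zinc-sensing factor MTF1 turns on Mt1 and Mt2 by binding metal response elements in their promoters, and glucocorticoids, cytokines acting through STAT3 and oxidative stress raise them too. In the brain Mt1 and Mt2 are made mainly by astrocytes and other non-neuronal cells, while Mt3, the brain form first known as growth inhibitory factor, is made by neurons and astrocytes and is little induced by metals. Mt4 is the form of stratified squamous epithelium.

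The 4 genes lie together on chromosome 8. The 250 bases before the annotated start of Mt1 and of Mt3, the 2 measured genes, are shown (RefSeq, GRCm38.p6, plus strand). The Mt1 window is chr8:94178839-94179088 and the Mt3 window chr8:94152357-94152606. Capitals mark the core of a metal response element, searched on both strands as TGCACNC or TGCGCNC.
Mt1: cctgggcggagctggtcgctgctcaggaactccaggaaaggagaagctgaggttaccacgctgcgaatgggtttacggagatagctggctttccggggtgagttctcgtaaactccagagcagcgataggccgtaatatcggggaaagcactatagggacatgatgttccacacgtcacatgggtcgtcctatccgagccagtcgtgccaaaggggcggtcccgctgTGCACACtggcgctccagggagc
Mt3: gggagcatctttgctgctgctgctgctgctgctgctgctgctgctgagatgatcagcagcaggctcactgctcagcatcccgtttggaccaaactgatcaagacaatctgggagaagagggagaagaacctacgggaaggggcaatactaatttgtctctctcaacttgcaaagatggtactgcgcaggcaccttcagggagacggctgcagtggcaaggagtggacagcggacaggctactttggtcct
The Mt1 window held 1 core, 23 to 17 bases before the start, and the Mt3 window held 0. The windows of Mt2 and Mt4 held 3 and 1. Of 32851 promoter windows of this length, 21.4% held at least 1 core and 1.26% at least 3. The glucocorticoid receptor half-site TGTTCT was in none of the 4 metallothionein windows and in 16.1% of all windows. The antioxidant response core TGACNNNGC was found once in the Mt2 window and in none of the other 3, against 10.2% of all windows. A match in a window is a description of its letters. The windows reach neither elements farther upstream nor any past the annotated start, and no other start was searched. Whether the whole promoters of Mt1 and Mt3 differ in this element was not tested.

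The arrays gave RMA expression values on a log2 scale, so a difference of 1 is a factor of 2. The median of an array was 4.98 to 5.05, and any pair of arrays correlated over all probe sets at 0.9908 to 0.9968. Probe sets without a target had a median of 3.64, which marks the background. The hypothalamic transcripts Pmch, Avp, Oxt and Hcrt averaged 12.42, 10.68, 10.62 and 10.55, Trh 7.48, Pomc 7.04 and Sim1 6.38, while Nkx2-1, at 4.17, was near the background. The sample titles carry numbers in a lower and a higher series, the lower one holding all 6 fasted arrays and knockout fed replicate 1 and the higher one the other 7 fed arrays. The labels do not say what the numbers stand for, and feeding state and number series overlap almost wholly. Control fed replicate 1 and knockout fed replicate 4 stood apart in markers of cortex and hippocampus, whose mean centred level was 0.76 and 0.35 there, against -0.19 to -0.0014 on the other arrays. Without these 2 arrays the fasting difference of Mt1 was 0.69 (adjusted p = 5.04e-05 in limma).

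Mt1 was among the brightest transcripts of the tissue and rose with fasting in both genotypes. In knockout fasted mice Mt1 stood at 12.94, 13.16 and 12.84, against 12.38, 12.36, 12.34 and 12.37 in knockout fed mice. In control fasted mice it stood at 13.01, 13.05 and 13.10, against 12.26, 12.31, 12.31 and 12.24 in control fed mice. Every fasted array lay above every fed array: the fasted arrays ran between 12.84 and 13.16, the fed arrays between 12.24 and 12.38, and 0.46 separated the nearest pair. The group means were 12.98 ± 0.16 in knockout fasted and 12.36 ± 0.02 in knockout fed mice, and 13.05 ± 0.05 in control fasted and 12.28 ± 0.04 in control fed mice (SD, n = 3 fasted and 4 fed each). The spread among knockout fasted arrays was the widest of the 4, and knockout fasted replicate 2 was the highest of all 14 arrays.

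**Figure D1:**
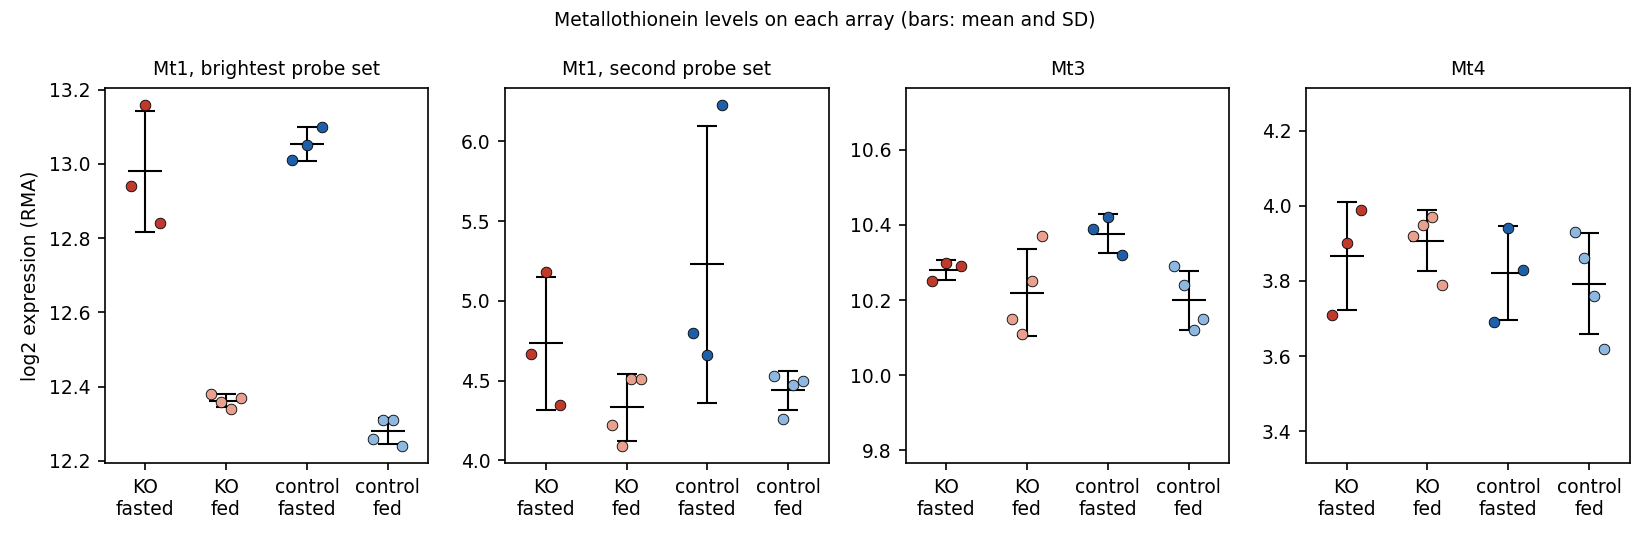
Log2 expression (RMA) of the Mt1 probe set, the second Mt1 probe set, Mt3 and Mt4 on each array, by group, with points for arrays and bars for the group mean and SD. All 6 fasted arrays of the main Mt1 probe set sit at 12.84 or higher and all 8 fed arrays at 12.38 or lower, while the fasted and fed arrays of Mt3 overlap.

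Averaged over the genotypes, Mt1 was higher in fasted than in fed mice by 0.70 ± 0.05 on the log2 scale (SE, 95% interval 0.60 to 0.79), a 1.62-fold difference, with an adjusted p of 3.55e-06 by limma with Benjamini-Hochberg adjustment over all 17097 genes. Thus 1 of the 2 measured metallothioneins passed, against 10.0% of all genes tested, or 5.14% counting only genes that were higher and 4.90% counting those that were lower. Without knockout fasted replicate 2 the number of genes called was 998, against 1715 with all arrays, and Mt1 still passed. Mt1 ranked 4 among all genes by its p-value and 82 by the size of its difference. The exact permutation test of Mt1 alone, over the 1225 assignments of arrays within genotypes, gave p = 0.000816, two-sided, the smallest it can give. Genes whose 6 fasted arrays all lay above the 8 fed arrays made up 1.92% of those tested.

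In the fit of all 4 groups the rise of Mt1 passed the test within each genotype. In knockout mice Mt1 was higher after fasting by 0.62 ± 0.07 (SE), a 1.53-fold difference with an adjusted p of 0.00124 in limma, where 0.696% of genes passed and 0.468% were higher. In control mice it was higher by 0.77 ± 0.07 (SE), a 1.71-fold difference with an adjusted p of 8.6e-05, where 2.76% of genes passed and 1.64% were higher. The arrays of the 2 feeding states did not overlap in either genotype, with a gap of 0.46 in knockout and 0.70 in control mice, as was so in the same direction for 7.37% and 7.94% of all genes. The exact permutation p was 0.0286 in knockout and 0.0286 in control mice, the smallest that 3 against 4 arrays allow. Without knockout fasted replicate 2, the array with the highest value, the difference in knockout mice was 0.53, still past the threshold. Leaving out single arrays moved the number of genes called in knockout mice to between 18, without that array, and 363, without knockout fasted replicate 3, against 119. In control mice the number ran between 216, without control fasted replicate 3, and 685, without knockout fasted replicate 2, against 472. The call of Mt1 held in both genotypes each time a single array was left out. It was lost in knockout mice when only the knockout arrays were fitted (0.62, adjusted p = 0.0582), with the mean of both probe sets (0.51, adjusted p = 0.164) and with the title number series as a covariate (0.60, adjusted p = 0.118), and in control mice with that covariate (0.75, adjusted p = 0.0685).

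A second probe set naming only Mt1 lay near the background and moved the same way without passing the test. It read 4.67, 5.18 and 4.35 in knockout fasted mice, against 4.22, 4.09, 4.51 and 4.51 in knockout fed mice. It read 4.80, 4.66 and 6.23 in control fasted mice, against 4.53, 4.26, 4.47 and 4.50 in control fed mice. Its highest array was control fasted replicate 3, the highest control array of the main probe set as well, and knockout fasted replicate 2 was next. The fasting difference was 0.60 ± 0.21 (SE) over both genotypes, with an adjusted p of 0.0992 in the limma fit of all 28898 probe sets that name 1 gene. The exact permutation p for the second probe set alone was 0.00653, two-sided. Another probe set names both Pomt2 and Mt1, lay between 5.78 and 6.10, and was not used.

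Mt3 was abundant too, and its levels moved far less. In knockout fasted mice Mt3 stood at 10.25, 10.30 and 10.29, against 10.15, 10.11, 10.25 and 10.37 in knockout fed mice. In control fasted mice it stood at 10.39, 10.42 and 10.32, against 10.29, 10.24, 10.12 and 10.15 in control fed mice. The knockout arrays of the 2 feeding states overlapped. The control fasted arrays lay just above the control fed arrays, with 0.03 between the nearest pair, a separation seen in the same direction for 7.94% of genes. The means of Mt3 were 10.28 ± 0.03 in knockout fasted, 10.22 ± 0.12 in knockout fed, 10.38 ± 0.05 in control fasted and 10.20 ± 0.08 in control fed mice (SD, n = 3 fasted and 4 fed each).

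The fasting difference of Mt3 over both genotypes was 0.12 ± 0.05 (SE, 95% interval 0.02 to 0.22), with an unadjusted p of 0.0253 and an adjusted p of 0.128 in limma, so it did not pass with all arrays. Control fed replicate 1 and knockout fed replicate 4, which stand apart in markers of cortex and hippocampus, held the highest Mt3 values of their groups, 10.29 and 10.37. Without these 2 arrays the difference of Mt3 was 0.16 and passed (adjusted p = 0.0376), as it did with the marker mean as a covariate (0.17, adjusted p = 0.0431). The exact permutation p of Mt3 was 0.0261, two-sided and not adjusted over genes. In knockout mice Mt3 differed by 0.06 ± 0.07 (adjusted p = 0.712 in limma), and in control mice by 0.18 ± 0.07 (adjusted p = 0.183). With all arrays, the interval of the averaged difference reaches no higher than 0.22, below the lower bound of 0.60 for Mt1.

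The difference between the 2 genes was tested on each array as Mt1 minus Mt3, which leaves out any shift common to both. This quantity ran between 2.55 and 2.86 on the fasted arrays, against 1.97 to 2.25 on the fed arrays, with no overlap. The fasting difference of Mt1 exceeded that of Mt3 by 0.58, with an exact permutation p of 0.000816, two-sided, the smallest the design can give. Within a feeding state the levels of the 2 genes showed no clear relation. Over the 6 fasted arrays Pearson's r was 0.29 (exact permutation p = 0.581) and Spearman's rho 0.43 (p = 0.419). Without the 2 arrays farthest from the median of Mt1, r was 0.48. Over the 8 fed arrays r was 0.05 (exact permutation p = 0.900) and rho 0 (p = 1), with r = 0.15 without the 2 farthest arrays. Adjusted over these 2 relations, the Pearson p-values were both 0.900 and the Spearman p-values 0.839 and 1.

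Mt4 had 1 probe set of its own and stood between 3.62 and 3.99 on all arrays, close to the background of 3.64. Its group means were 3.87 in knockout fasted, 3.91 in knockout fed, 3.82 in control fasted and 3.79 in control fed mice.

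Deletion of Mfn1 in POMC neurons was not accompanied by a metallothionein difference that passed the test. Mt1 differed between knockout and control fed mice by 0.08 ± 0.06 (SE, 95% interval -0.05 to 0.21), with an unadjusted p of 0.195 and an adjusted p of 0.995 in limma. The 4 knockout fed arrays of Mt1 (12.34 to 12.38) did lie above the 4 control fed arrays (12.24 to 12.31), with 0.03 between the nearest pair, and the exact permutation p was 0.0286, the smallest that 4 against 4 arrays allow, not adjusted over genes. Such a separation in the same direction held for 0.977% of genes. In fasted mice the knockout arrays of Mt1 overlapped the control arrays, and the difference was -0.07 ± 0.07 (SE, 95% interval -0.22 to 0.08, adjusted p = 1 in limma, exact permutation p = 0.5). Averaged over feeding states the difference was 0.0046 ± 0.05 (adjusted p = 0.999), a value whose sign changed with single arrays and with the scaling.

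Mt3 behaved likewise toward the deletion. Its difference was 0.02 ± 0.06 in fed mice (SE, adjusted p = 0.995 in limma) and -0.10 ± 0.07 in fasted mice (adjusted p = 1). In fasted mice the 3 knockout arrays (10.25 to 10.30) all lay below the 3 control arrays (10.32 to 10.42), as held for 3.45% of genes, and the exact permutation p of 0.1 was the smallest that 3 against 3 arrays allow. The genotype comparisons called 0.00585% of genes in fed mice and 0% in fasted mice. At an unadjusted p under 0.05 they held 790 and 661 genes. Averaged over feeding states, Mt3 differed by -0.04 ± 0.05 (adjusted p = 0.999), where 0.00585% of genes were called.

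The fasting difference of Mt1 in knockout mice minus that in control mice was -0.16 ± 0.09 (SE, 95% interval -0.35 to 0.04), with an unadjusted p of 0.115 and an adjusted p of 0.9999 in limma. The same contrast for Mt3 was -0.12 ± 0.09 (adjusted p = 0.9999). Neither gene was thus shown to respond differently to fasting in the 2 genotypes. No gene passed in this contrast (0%), and 654 genes had an unadjusted p under 0.05. For Mt1 a smaller response in knockout mice of up to 0.35 and a larger one of up to 0.04 both lie within the interval.

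**Figure D2:**
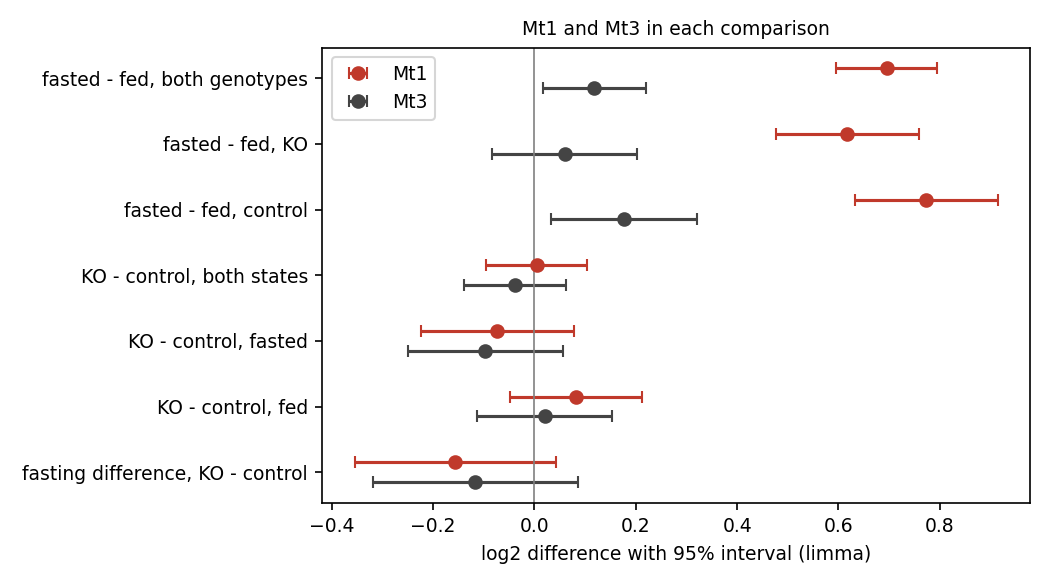
Log2 differences of Mt1 and Mt3 in each of the 7 comparisons, with 95% intervals from limma. The 3 fasting comparisons of Mt1 lie between 0.62 and 0.77 with intervals clear of 0, while its genotype and interaction intervals include 0.

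Among all genes tested, Mt1 was 47th by mean level, at 12.62, so that 0.269% of genes were brighter. Of the 46 brighter genes, 1 passed in the averaged fasting comparison, Ptgds, the brain's prostaglandin D synthase, at 0.48 (adjusted p = 0.00267 in limma), named after its value was seen. The fasting differences of these 46 genes ran between -0.18 and 0.48, against 0.70 for Mt1. Mt3, at a mean of 10.26, had 7.76% of genes above it, and Mt4, at a mean of 3.85, had 91.3%. Levels of different probe sets depend on their probes, so this order of levels is that of array signals.

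**Figure D3:**
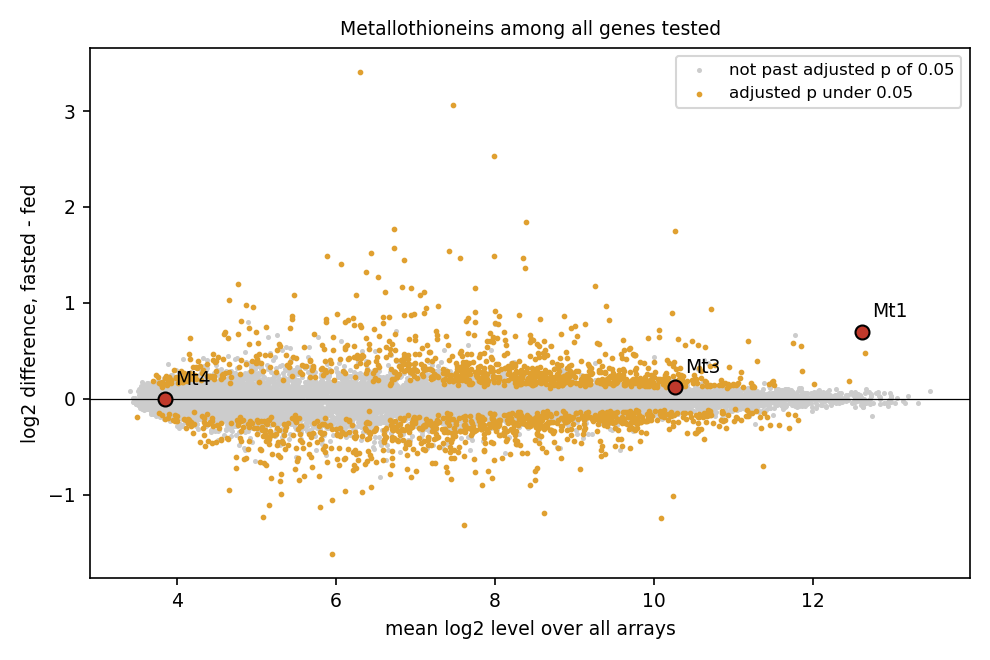
Log2 difference of fasted minus fed mice, averaged over genotypes, against the mean log2 level over all 14 arrays, for all 17097 genes tested, with the metallothioneins marked. Mt1, at a level of 12.62 and a difference of 0.70, lies above the 46 brighter genes, which reach 0.48, and Mt3 lies at 10.26 and 0.12.

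Metallothionein genes are switched on by MTF1, and cellular zinc is set by exporters of the Slc30a family and importers of the Slc39a family. Mtf1, the gene for the zinc-sensing factor itself, rose with fasting by 0.64 ± 0.15 (SE, adjusted p = 0.0189 in limma). It stood at 6.66, 7.25 and 6.20 in knockout fasted mice, against 6.04, 6.14, 6.30 and 6.17 in knockout fed mice. It stood at 6.59, 6.45 and 7.28 in control fasted mice, against 5.93, 6.04, 6.05 and 6.13 in control fed mice. Knockout fasted replicate 3 lay within the range of the knockout fed arrays, and knockout fasted replicate 2 and control fasted replicate 3 were far above the rest, as they were the highest of their groups for Mt1.

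Of 10 measured zinc exporters, 1 rose and 1 fell with fasting in both genotypes together, with a list median of 0.01 beside 0.0025 for all genes. Among all genes 5.14% rose and 4.90% fell. Slc30a1, the plasma membrane exporter and a known MTF1 target, rose by 0.25 ± 0.06 (SE, adjusted p = 0.0265 in limma). It read 9.70, 9.99 and 9.73 in knockout fasted mice, against 9.52, 9.40, 9.51 and 9.50 in knockout fed mice, with no overlap. It read 9.74, 9.54 and 9.84 in control fasted mice, against 9.64, 9.35, 9.60 and 9.51 in control fed mice, where the groups overlapped. The call for Slc30a1 was kept in 19 of 26 alternative settings and lost when any 1 of 4 arrays was left out. The difference was 0.24 (adjusted p = 0.0611) without control fasted replicate 1 and 0.22 (0.0679) without control fasted replicate 3. It was 0.21 (0.0707) when knockout fasted replicate 2 was dropped and 0.24 (0.0529) when knockout fed replicate 2 was dropped.

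Slc30a10, known chiefly as a manganese exporter, fell by 0.41 ± 0.07 (SE, adjusted p = 0.0041 in limma). It read 6.30, 5.92 and 6.19 in knockout fasted mice, against 6.57, 6.47, 6.59 and 6.74 in knockout fed mice. It read 6.22, 6.12 and 6.36 in control fasted mice, against 6.48, 6.50, 6.78 and 6.63 in control fed mice. All 6 fasted arrays of Slc30a10 lay below all 8 fed arrays, as held for 1.49% of genes. Slc30a3, which loads zinc into synaptic vesicles, did not pass, at -0.21 ± 0.18 (adjusted p = 0.495). It is also on the list of cortex and hippocampus markers. Slc30a3 read 6.24 to 7.70 on the fed arrays, against 6.30 to 6.61 on the fasted arrays. The median over the exporters hides the opposite changes of Slc30a1 and Slc30a10.

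Of 14 measured zinc importers, 2 fell and 0 rose, beside 4.90% and 5.14% of all genes, with a list median of -0.03. Slc39a10, an importer that MTF1 represses in other systems, fell by 0.25 ± 0.06 (SE, adjusted p = 0.0268 in limma). It read 10.76, 10.42 and 10.75 in knockout fasted mice, against 10.70, 10.90, 10.80 and 10.84 in knockout fed mice, which overlapped. It read 10.53, 10.69 and 10.50 in control fasted mice, against 11.04, 10.94, 10.84 and 10.80 in control fed mice, which did not overlap (8.57% of genes separated in this direction). The call for Slc39a10 was kept in 18 of 26 alternative settings. It was lost without the 2 arrays high in cortex and hippocampus markers (-0.22, adjusted p = 0.0708). It was also lost without control fasted replicate 1 (-0.24, adjusted p = 0.0629) or control fasted replicate 3 (-0.23, 0.0657). The same held without knockout fasted replicate 2 (-0.19, 0.0598) or knockout fed replicate 2 (-0.23, 0.0535). In the settings other than single arrays left out, the difference of Slc39a10 ran between -0.36 and -0.12. Slc39a2, at a low level of 5.11, fell by 0.36 ± 0.09 (adjusted p = 0.0242), a call kept in 18 of 25 alternative settings. It was lost without control fasted replicate 1, control fasted replicate 3 or knockout fasted replicate 1 (adjusted p of 0.0549, 0.0583 and 0.0532). It was also lost without the 2 arrays high in cortex and hippocampus markers (adjusted p = 0.0547). Slc39a14, an importer of zinc and iron induced in inflammation, was at -0.04 ± 0.07 (adjusted p = 0.745).

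**Figure D4:**
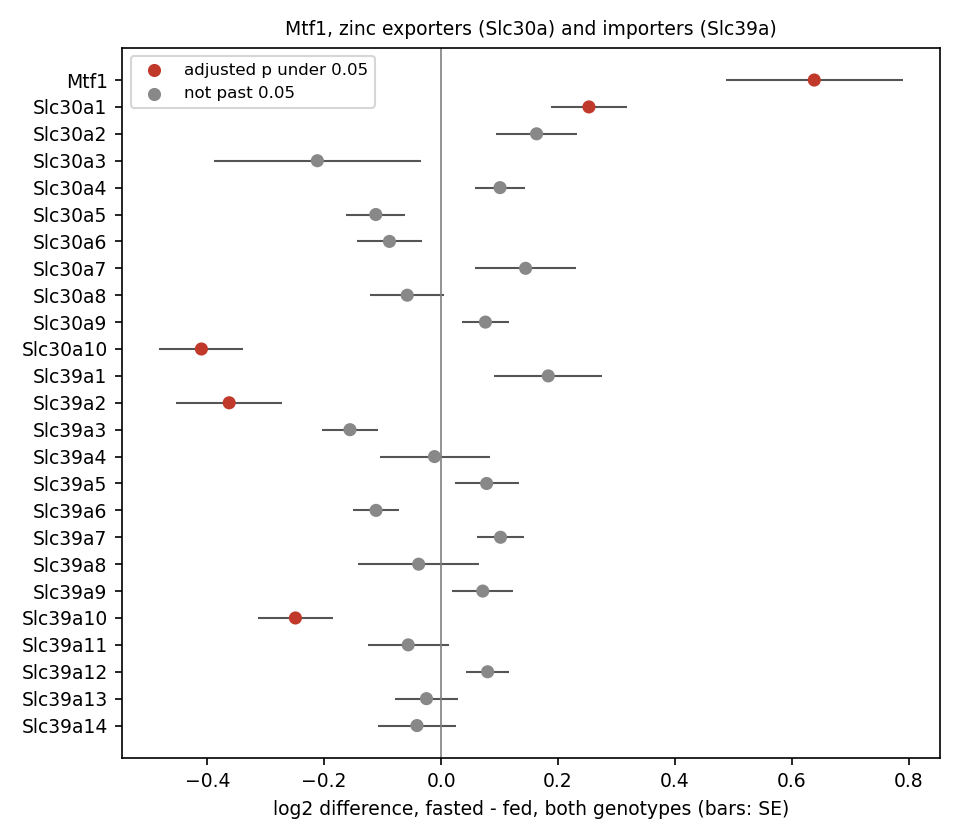
Log2 difference of fasted minus fed mice, averaged over genotypes, with its SE, for Mtf1 and all measured zinc exporters and importers. Mtf1 at 0.64 and Slc30a1 at 0.25 passed upward and Slc30a10, Slc39a10 and Slc39a2 downward, while the other transporters did not pass.

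None of the 16 measured genes of copper handling, of 17 listed, passed in either direction in limma, with differences between -0.14 and 0.29, a median of 0.0023 and 3 genes at an unadjusted p under 0.05. Of 8 genes of MTF1 regulation and its targets, 2 rose (Mtf1 and Slc30a1) and 2 fell (Slc39a10 and Slc30a10), with a median of 0.01. Among all genes 5.14% rose and 4.90% fell. Slc30a1, Slc30a10 and Slc39a10 are also counted in the zinc lists above, so the lists overlap. In each genotype alone, 0 genes of the zinc, copper and MTF1 lists passed in limma, where 0.696% of all genes passed in knockout and 2.76% in control mice. In the knockout mice 3 exporters, 2 importers, 1 copper gene and 4 genes of the MTF1 list had an unadjusted p under 0.05. In the control mice the same counts were 3, 4, 2 and 3. Mt1 passed within each genotype in the same fit, with the losses under other settings given above.

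Glucocorticoid-responsive genes, a class to which Mt1 belongs, moved with it. Of 24 listed genes, 22 rose with fasting and 0 fell, with a list median of 1.12, while 5.14% of all genes rose. In knockout mice 8 rose and in control mice 21, where 0.468% and 1.64% of all genes rose. For the fasting difference of knockout minus that of control mice, 0 of the 24 passed. The list was written with earlier results of these data known and is not independent evidence of its direction. Fkbp5, a co-chaperone of the glucocorticoid receptor and a standard readout of it, rose by 1.46 ± 0.17 (SE, adjusted p = 0.000359 in limma). It read 8.70, 9.85 and 8.44 in knockout fasted mice, against 7.70, 7.62, 7.82 and 7.95 in knockout fed mice. It read 9.20, 9.37 and 9.60 in control fasted mice, against 7.76, 7.83, 7.65 and 7.51 in control fed mice. Sgk1, a kinase induced by glucocorticoids, rose by 1.75 ± 0.22 (adjusted p = 0.000485). The 4 members with the smallest p were Sult1a1, a sulfotransferase, at 2.54, Mfsd2a, a lipid transporter of the blood-brain barrier, at 1.85, Plin4, a lipid droplet coat protein, at 3.41, and Fam107a at 0.55. Nr3c1, the glucocorticoid receptor gene, fell by 0.21 ± 0.05 (adjusted p = 0.0257), a call lost without control fasted replicate 3 (-0.20, adjusted p = 0.0611). The Nr3c1 call was kept in 23 of 26 alternative settings.

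Genes tied to the other known inducers of metallothioneins showed mixed values, while among all genes 5.14% rose and 4.90% fell. The part of any of these inducers, glucocorticoids included, in the rise of Mt1 was not tested. Of 13 measured genes of the oxidative stress response governed by NRF2, of 15 listed, 2 rose and 2 fell. Srxn1, which repairs peroxiredoxins, rose by 0.28 and the glutathione transferase Gstm1 by 0.19, while the cystine transporter Slc7a11 fell by 0.79 and malic enzyme Me1 fell by 0.29. Hmox1, the heme oxygenase gene, stood near the background and differed by -0.01 ± 0.11 (adjusted p = 0.954 in limma). Of 13 genes of STAT3 signalling and the acute phase, 2 rose, the cytokine receptor Lifr by 0.43 and Serpina3n by 0.36, and 1 fell, the shared receptor subunit Il6st, by 0.24 (adjusted p = 0.0344), a call kept in 12 of 26 alternative settings. Stat3 itself was at 0.01 ± 0.04 (adjusted p = 0.883). In this list Socs3, Steap4, Saa3, Bcl3, Timp1, Lcn2 and Fgg averaged 3.58 to 4.30, near the background of 3.64. Their small differences are limited by that background.

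The genes most like Mt1 across the 14 arrays were ranked by Pearson's r of their log2 levels, a description that mostly follows the feeding state shared by the arrays. They were Plin4 (r = 0.990), Mfsd2a (0.988), Fgfr3, a growth factor receptor of astrocytes (0.981), Ptpn11, a phosphatase (0.981), and Prodh, which breaks down proline (0.975). All 5 rose with fasting, Ptpn11 by the smallest amount of 0.33 and Plin4 by 3.41. Plin4 stood between 6.98 and 9 on the fasted arrays, against 4.51 to 5.55 on the fed arrays. Mt3 was 1667th in this order, with r = 0.62, and Mt4 had r = 0.003.

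Within groups, the deviations of Mt1 from its group means over the 14 arrays were most like those of Tspan4, a tetraspanin (r = 0.972), Fkbp5 (0.937) and the chemokine Ccl17 (0.923), and r with Mt3 was -0.02. The knockout fasted arrays held 86.0% of the squared deviations of Mt1. Over the other 11 arrays r was 0.84 for Tspan4, 0.63 for Fkbp5 and 0.39 for Ccl17. These 3 genes also rose with fasting, Tspan4 by 0.66 ± 0.13 (SE, adjusted p = 0.00914 in limma) and Ccl17 by 0.70 ± 0.13 (adjusted p = 0.00465). Tspan4 read 8.36, 9.19 and 8.09 in knockout fasted mice, against 8.09, 7.87, 7.97 and 7.99 in knockout fed mice. It read 8.54, 8.66 and 8.92 in control fasted mice, against 7.84, 7.99, 8.08 and 7.92 in control fed mice. Knockout fasted replicate 2 and control fasted replicate 3 were the highest of their groups for Mt1, its second probe set, Mtf1, Fkbp5, Tspan4 and Slc30a1 alike. The order of all 6 fasted arrays was exactly that of Mt1 for 40 other genes, 0.234% of those tested, Fkbp5 and Tspan4 among them. Both were ranked by likeness to Mt1 on these same arrays, so their shared order is not separate evidence.

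**Figure D5:**
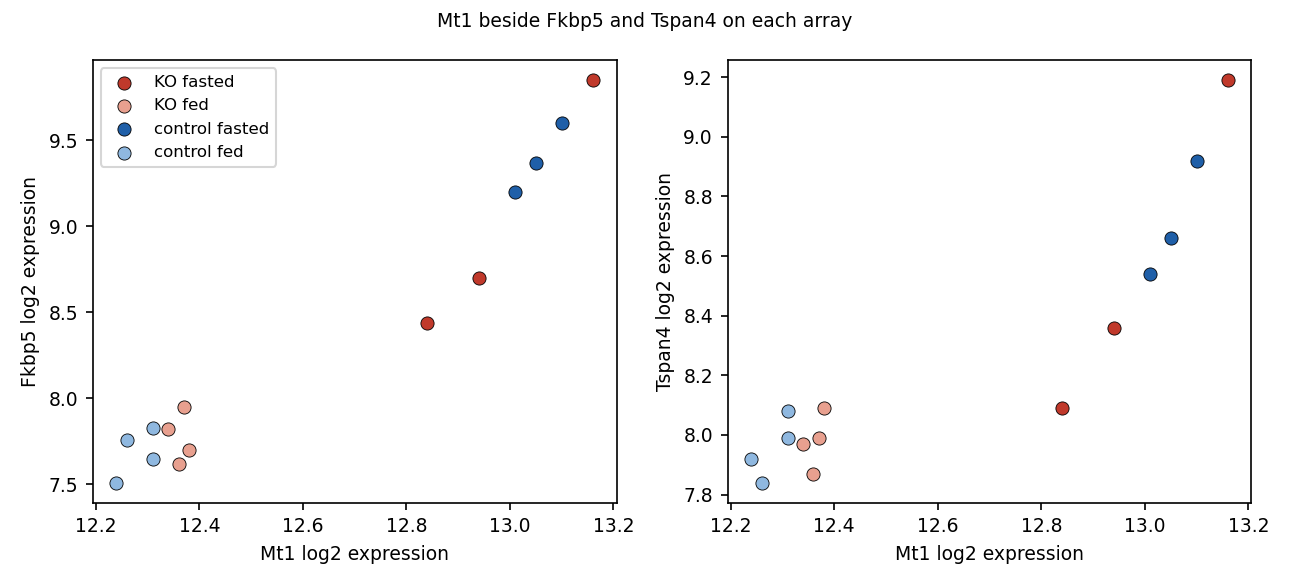
Log2 level of Mt1 against that of Fkbp5 and of Tspan4 on each of the 14 arrays, by group. Fasted arrays with more Mt1 also held more Fkbp5 and Tspan4, up to knockout fasted replicate 2 with 13.16, 9.85 and 9.19. Both genes ranked highest by likeness to Mt1 within groups on these same arrays.

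For Mt3 the most similar levels were those of Efr3a (r = 0.915), Plcl1 (0.854), Abcc4 (0.852), Klf13 (0.849) and Wrap73 (0.837). Of these, Abcc4, an efflux pump, and Klf13, a transcription factor, rose with fasting, by 0.87 and 0.60. Efr3a, at 0.13 ± 0.05 (SE, adjusted p = 0.0971 in limma), Plcl1, at 0.15 (adjusted p = 0.0584), and Wrap73, at 0.15 (adjusted p = 0.122), did not pass. Without the 2 arrays high in cortex and hippocampus markers Efr3a (0.18, adjusted p = 0.0203) and Plcl1 (0.18, adjusted p = 0.0407) passed. The deviations of Mt3 from its group means were most like those of Pip5k1c (r = 0.936), Tspo (0.897) and Ctsd (0.893). None of the genes listed as most like Mt1 is among those most like Mt3. Lists this short, cut from 17097 genes, do not measure how unlike the 2 genes are.

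The genes around the cluster on chromosome 8 were also compared. Of the 10 nearest tested genes, 5 on each side of the stretch from Mt1 to Mt3, 1 rose with fasting, Herpud1, a gene of the endoplasmic reticulum stress response, by 0.32 ± 0.06 (SE, adjusted p = 0.00585 in limma), a share close to the 10.0% of all genes called. The differences of the other 9, Mt4 included, lay between -0.21 and 0.06, with adjusted p of 0.0579 to 0.995.

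Markers of the cells that make metallothioneins moved partly with Mt1. Of 12 astrocyte markers, 4 rose with fasting, the angiotensinogen gene Agt by 0.56, Fgfr3 by 0.60, the gap junction gene Gjb6 by 0.72 and Aldh1l1 by 0.33. Among all genes 5.14% rose and 4.90% fell. Gjb6 is also counted among the glucocorticoid-responsive genes above. The water channel gene Aqp4, named after its value was seen, fell by 0.36 (adjusted p = 0.0023 in limma), and the other 7, Gfap among them, did not pass. The median over the astrocyte markers was 0.08. The mean of their centred log2 levels ran between 0.05 and 0.22 on the fasted arrays, against -0.12 to -0.04 on the fed arrays, with no overlap. With that mean as a covariate Mt1 differed by 0.59 (adjusted p = 0.36), and no gene passed. Since the mean separates fasted from fed arrays, that fit can hardly tell it apart from feeding state. The part of astrocyte number in the rise of Mt1 was not tested.

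Microglial markers, too, separated the feeding states, in the opposite direction. Of 9 measured microglial markers, of 10 listed, 5 fell and 0 rose, beside 4.90% and 5.14% of all genes. The mean of their centred levels ran between -0.34 and 0.01 on the fasted arrays, against 0.03 to 0.27 on the fed arrays, with no overlap. Their median difference was -0.35, and their part in the metallothionein values was not tested. Of 7 measured tanycyte markers, of 8 listed, 1 rose, the deiodinase gene Dio2, by 0.86. Of 11 markers of endothelium and pericytes, 3 fell. Of 10 measured oligodendrocyte markers, of 12 listed, 1 rose and 2 fell. Of 9 measured markers of cortex and hippocampus, of 11 listed, 1 fell. None passed in limma among 10 neuronal, 10 choroid plexus, 8 meningeal, 7 ependymal (of 8 listed) and 5 blood markers (of 7 listed), where 1 ependymal gene and 0 of the others had an unadjusted p under 0.05. The choroid plexus mean varied widely within both states, between -1.29 and 0.82 on the fasted arrays, against -1.39 to 1.45 on the fed arrays. In the genotype comparison averaged over feeding states, 0 genes of the cell type, metal and inducer lists passed in limma. There 795 of all 17097 genes had an unadjusted p under 0.05, and so did 9 of 10 choroid plexus markers. These markers were higher in knockout than in control arrays by a median of 1.09, between 0.46 and 2.14, and their mean ran between -1.24 and 1.45 on the knockout arrays, against -1.39 to 0.70 on the control arrays. With that mean as a covariate, the genotype difference averaged over feeding states was 0.03 for Mt1 (adjusted p = 0.982) and -0.11 for Mt3 (adjusted p = 0.805).

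The title number series moved with feeding state as well. When the series was added as a covariate, Mt1 was higher in fasted mice by 0.67 (adjusted p = 0.0392), while the number of genes past the threshold was 15, against 1715 without it. Among the fed arrays only knockout fed replicate 1 informs that fit. On knockout fed replicate 1 Mt1 read 12.38, against 12.34 to 12.37 on the other 3 knockout fed arrays. Of the genes of the zinc pathway, Mtf1 was at 0.78 (adjusted p = 0.417) in that fit.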

How the data were processed

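Log2 expression values were used as deposited. Per the submitters' processing notes, the authors used RMA and affy, of unstated versions. RMA fits arrays to a common distribution and compresses differences near background. No genome build is stated. Of 45141 probe sets, 28898 named 1 gene, 551 several and 15692 none. For 7180 of the 17097 genes tested, the brightest of several probe sets was taken. No filter was applied.

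The 14 arrays were fitted in R 4.3.3 with limma 3.58.1, 1 coefficient per group, contrasts and eBayes (10 residual and 3.27 prior degrees of freedom). Tests were two-sided and adjusted over all genes by Benjamini-Hochberg, with a threshold of 0.05. The fit was tested on simulated data. No pair of arrays shared over 2.86% identical values.

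The members and gene lists were chosen with earlier results of these data known. Beside the members and fixed single genes, the text names up to 4 called genes per list with the smallest p, neighbours, and the genes most alike. Alternatives covered probe set, filter, scaling, array weights, trend, covariates and single arrays left out. The number of arrays limits precision.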

Additional observations from a re-analysis of the deposited data

Results flagged for a closer look

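In the 8 sets of 4 fed arrays tested for an array apart, and in the comparisons between genotypes, no metallothionein value met a criterion for a closer look.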

How the results depend on the processing

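The direction of the Mt1 fasting difference held in all alternatives, from 0.59 to 0.73 in both genotypes with the main probe set. Its call was lost in both genotypes together with the second probe set (0.60) and with the astrocyte marker mean as a covariate (0.59), and kept with the title number series as a covariate. The astrocyte mean did not overlap between fasted and fed arrays, so fits with it can hardly tell it apart from feeding state. In control mice the call of Mt1 was lost with the second probe set (0.79), the series covariate (0.75) and the astrocyte covariate (0.65). In knockout mice it was lost with the mean of both probe sets (0.51), the second probe set (0.40), only the 2 groups compared (0.62), the series covariate (0.60), the astrocyte covariate (0.53) and the arrays of 1 title series alone (0.60, 3 fasted and 1 fed). Leaving out single arrays gave 0.65 to 0.73 for both genotypes, 0.75 to 0.80 in control and 0.53 to 0.69 in knockout mice, all past the threshold. Mt3 passed for both genotypes together with the cortex and hippocampus marker mean as a covariate (0.17, adjusted p = 0.0431) and without the 2 arrays high in it (0.16, adjusted p = 0.0376), an alternative chosen after seeing the data.

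The averaged genotype difference of Mt1 changed sign to -0.15 (mean of probe sets), -0.30 (second probe set), -0.0017 (array weights), -0.0063 (median centring) and -0.00549 (quantile), and ran between -0.0404 and 0.0396 without single arrays. In fed mice it was -0.0125 (mean of probe sets) and -0.11 (second probe set). For Mt3 in fed mice it was -0.053 with the choroid plexus covariate and -0.03 to 0.057 without single arrays. Fasting differences of other genes changed sign as follows. With the astrocyte covariate, under the limit given above, Mtf1 was at -0.074, Slc39a14 at 0.37, Stat3 at -0.067 and Slc7a11 at 0.15. With the series covariate Slc39a14 was at 0.16 and Hmox1 at 0.50. With the cortex covariate, a mean that holds Slc30a3 itself, Slc30a3 was at 0.080 and Hmox1 at 0.0175. Hmox1 was at 0.033 without the 2 arrays high in those markers. Stat3 was at -0.0085 with array weights and -0.0054 to 0.0396 without single arrays, and Hmox1 -0.089 to 0.043. Mtf1 lost its call with the series covariate (0.78, adjusted p = 0.417) and the cortex covariate (0.60, 0.0541).

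The genes past the threshold in the averaged fasting comparison numbered 2501 by probe set, 15 with the series covariate, 0 with the astrocyte covariate and 998 to 2120 without single arrays, the lowest without knockout fasted replicate 2. In control mice they numbered 770 with a trended prior, 2 and 0 with the same covariates and 216 to 685 without single arrays, against 472. In knockout mice they numbered 231 with the filter, 181 by probe set, 10 in the 2 groups alone, 341 with a trended prior, 0 and 0 with the covariates, 9 in 1 title series and 18 to 363 without single arrays, against 119. The genotype comparisons and the interaction called 0 to 6 genes. The causes were not tested. No paired analysis was possible because the title numbers are all different. Small differences of dim probe sets such as Mt4 and the second Mt1 probe set are limited by background.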
